A study of Mus musculus with 9 samples.

Results

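The transcripts of 7 genes of interleukin-17 (IL-17) signalling were followed in mouse epidermis: the ligand Il17c, the receptor genes Il17ra, Il17rc and Il17re, the adaptor Traf3ip2, and the downstream regulators Zc3h12a and Nfkbiz. They were chosen by symbol from the gene count table of the epidermis, which lists 52550 genes. IL-17A and IL-17F, which come mainly from T cells, signal through a receptor made of IL-17RA and IL-17RC, while IL-17C is made by epithelial cells and signals back to them through IL-17RA and IL-17RE. The adaptor Act1, the product of Traf3ip2, binds the engaged receptors and passes the signal to TRAF6, NF-κB and C/EBP factors, and it also lengthens the life of target mRNAs. In skin this pathway drives keratinocytes to make chemokines and antimicrobial proteins, and its blockade is used to treat psoriasis.

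The mice were C57BL/6 wild type (C57BL/6J in the methods) and 8 weeks old, and their ears were treated topically for 5 days, and they were gavaged for 10 days with 200 µl. VAS+H2O mice received Vaseline and water, IMQ+H2O mice were given water and imiquimod, which activates Toll-like receptor 7 and brings on psoriasis-like inflammation, and IMQ+XYF mice were given imiquimod and the herbal decoction Xiao-Yin-Fang (XYF) at 23.3 mg/g. RNA was taken from intact sheets of ear epidermis in 3 groups of 3 libraries. The methods state that sheets came from a pair of mice without saying whether that holds for each library, so the p-values may measure technical spread.

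Total counts per library were 31034401 to 44681447 in VAS+H2O, 30298275 to 43815369 in IMQ+H2O, then 33208358 to 64771160 in IMQ+XYF. A floor of 3 counts was equal to 0.0463 to 0.0990 CPM (counts scaled to a common library total) in these libraries before TMM normalization, and it covers counting error only. Levels are given as CPM after TMM normalization, in the order of replicates 1, 2 and 3.

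Keratinocyte transcripts fitted the tissue label. The 8 keratinocyte markers, led by Krt10, had counts in all 9 libraries and summed to 46692 to 71652 CPM. The library VAS+H2O replicate 2 stood apart through transcripts of tissue under the epidermis. Its 8 dermal fibroblast markers, led by Dcn, summed to 725 CPM, against 106 and 143 CPM in the other VAS+H2O libraries, 70.7 to 77.3 CPM in IMQ+H2O and 113 to 261 CPM in IMQ+XYF. Its 8 cartilage markers, led by Acan, summed to 441 CPM, against 181 and 205 CPM in VAS+H2O, 36.5 to 77.4 CPM in IMQ+H2O, then 132 to 194 CPM in IMQ+XYF. Its 5 skeletal muscle markers, led by Acta1, summed to 122 CPM, against 3.21 to 36.5 CPM in the other libraries.

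Marker sums of dendritic epidermal T cells and of neutrophils set the controls apart from both treated groups. Those of monocytes and macrophages and of Langerhans cells overlapped between all groups. The 8 markers of dendritic epidermal T cells, led by Trdc, summed to 60.6 to 69.8 CPM in VAS+H2O, 34.6 to 50.3 CPM in IMQ+H2O, then 33.4 to 53.1 CPM in IMQ+XYF. The 11 neutrophil markers, led by Cxcr2, summed to 16.9 to 19.8 CPM in VAS+H2O, 51.5, 57.5 and 155 CPM in IMQ+H2O, then 66.2 to 100.2 CPM in IMQ+XYF. Of these, Elane had 0 counts in every library. Ly6g had 0 in all VAS+H2O libraries, and its 22 counts in IMQ+H2O came from a single library. Cxcr2 made up most of each sum, with 10.6 to 12.6 CPM in VAS+H2O, 49.2, 50.4 and 80.6 CPM in IMQ+H2O and 54.3 to 60.9 CPM in IMQ+XYF. Between treated libraries the sums did not follow this gene alone. IMQ+XYF replicate 1 had a sum of 100.2 CPM with Cxcr2 at 56.1 CPM, against 66.2 and 60.9 CPM in replicate 2. Csf3r reached 38.0 CPM in IMQ+H2O and 22.9 CPM in IMQ+XYF. The 8 monocyte and macrophage markers, led by Csf1r, summed to 36.4 to 63.6 CPM over all libraries, with Ly6c2 at 0 counts in VAS+H2O, and the 6 Langerhans cell markers, led by Cd74, to 551 to 752 CPM. The 4 endothelial markers, led by Pecam1, summed to 2.85 to 10.4 CPM and the 4 melanocyte markers, led by Dct, to 10.4 to 32.6 CPM.

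The genes lie on 5 chromosomes of GRCm38. Il17re (ENSMUSG00000043088, chr6:113458484-113470758) and Il17rc (ENSMUSG00000030281, chr6:113471427-113483140) are neighbours on the forward strand of chromosome 6, and Il17rc starts 669 bases after the last base of Il17re. Il17ra (ENSMUSG00000002897) lies farther along the same strand at chr6:120463247-120487559. Il17c (ENSMUSG00000046108) is at chr8:122422020-122423639 and has 2 exons. The gene model Gm20388 spans it with 0 shared exon bases and had 0 counts in every library. Traf3ip2 (ENSMUSG00000019842) is at chr10:39612934-39655307. It shares 293 exon bases with the antisense gene E130307A14Rik, which had 123 to 340 counts per library beside 1409 to 2943 for Traf3ip2. The strand setting of the counting is not given in the sources used here, so reads of this pair may not have been told apart. Zc3h12a (ENSMUSG00000042677, chr4:125118423-125127840) and Nfkbiz (ENSMUSG00000035356, chr16:55811375-55838899) are on the reverse strand.

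Il17c, which encodes the epithelial ligand of the family, was close to the floor in control epidermis. Its counts were 8, 2 and 0 in VAS+H2O, 45, 29 and 58 in IMQ+H2O, then 47, 24 and 34 in IMQ+XYF. In CPM, Il17c was at 0.169, 0.0607 and 0 in VAS+H2O, 1.55, 0.754 and 1.34 in IMQ+H2O, then 0.738, 0.740 and 0.968 in IMQ+XYF. Every imiquimod-treated library was above every control library, and IMQ+H2O and IMQ+XYF overlapped.

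Il17ra, the receptor chain shared by IL-17A, IL-17F and IL-17C, was nearly flat over the libraries. It was at 35.9, 35.7 and 38.9 CPM in VAS+H2O, 37.8, 38.3 and 37.0 CPM in IMQ+H2O, then 35.5, 35.0 and 34.3 CPM in IMQ+XYF. The control and IMQ+H2O libraries overlapped, while all IMQ+XYF libraries were below all others by a narrow margin. Il17rc, the chain that joins IL-17RA to bind IL-17A and IL-17F, was at 101.25, 83.8 and 111 CPM in VAS+H2O, 139, 130 and 141 CPM in IMQ+H2O, then 139, 145 and 131 CPM in IMQ+XYF. The lowest library was VAS+H2O replicate 2, and all treated libraries were above all controls. Il17re, the chain that joins IL-17RA to bind IL-17C, was at 32.0, 28.7 and 26.8 CPM in VAS+H2O, 35.3, 47.2 and 40.2 CPM in IMQ+H2O, then 36.0, 33.8 and 37.9 CPM in IMQ+XYF. Treated libraries were again all above the controls, with overlap between IMQ+H2O and IMQ+XYF.

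Traf3ip2, the gene of the adaptor Act1, was at 47.3, 51.5 and 52.9 CPM in VAS+H2O, 48.7, 48.6 and 51.9 CPM in IMQ+H2O, then 46.2, 54.0 and 49.6 CPM in IMQ+XYF. All groups overlapped.

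Zc3h12a encodes Regnase-1, an endoribonuclease that cuts the mRNAs of inflammatory genes and so restrains IL-17 signalling. It was at 50.5, 96.2 and 98.7 CPM in VAS+H2O, 263, 253 and 299.5 CPM in IMQ+H2O, then 238, 302 and 189 CPM in IMQ+XYF. No control library reached any treated library, and IMQ+XYF spread to both sides of IMQ+H2O. Nfkbiz encodes IκBζ, a nuclear protein that NF-κB needs at a subset of its target genes. It was at 149, 291 and 339 CPM in VAS+H2O, 527, 403 and 434 CPM in IMQ+H2O, then 400.1, 476 and 278 CPM in IMQ+XYF. VAS+H2O replicate 1 was low for both regulators, and IMQ+XYF replicate 3 was the lowest of its group for both. For Nfkbiz, this last library was within the range of the controls.

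**Figure D1:**
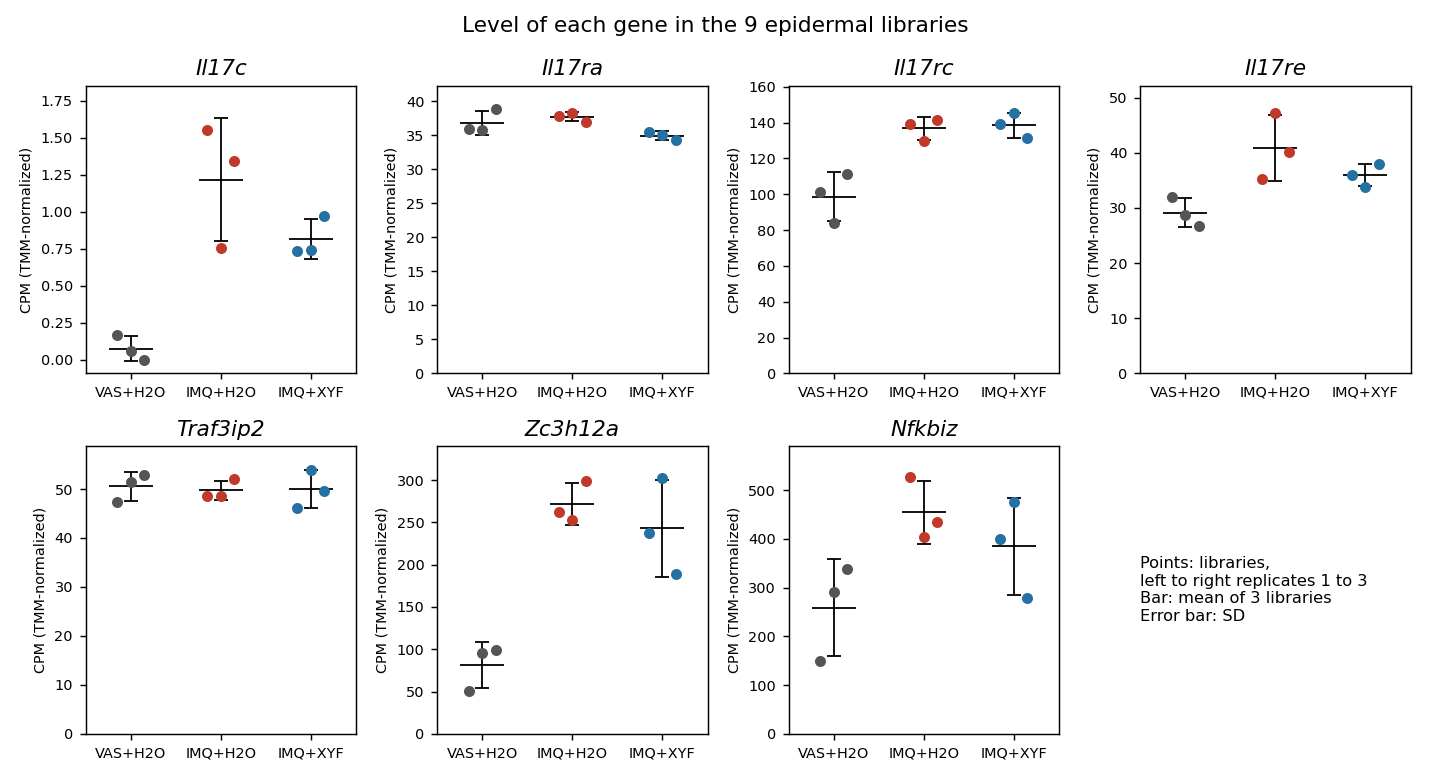
Level of each of the 7 genes in CPM (TMM-normalized, vertical axis, from 0) in the VAS+H2O, IMQ+H2O and IMQ+XYF libraries, with points for replicates 1 to 3, a bar for the mean and error bars for the SD (n = 3). Zc3h12a was between 50.5 and 98.7 CPM in the controls and between 189 and 302 CPM in the treated libraries, while Traf3ip2 and Il17ra differed little.

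Between genes, levels were compared per kilobase of the union of annotated exons. In VAS+H2O, Nfkbiz was highest at 51.7 ± 19.7 CPM per kb (SD, n = 3), before Il17rc at 37.0 ± 5.18, Zc3h12a at 28.4 ± 9.41 and Traf3ip2 at 13.7 ± 0.784 CPM per kb. Nfkbiz and Il17rc overlapped, and so did Il17rc and Zc3h12a. The other receptor chains were lower, with Il17re at 4.97 ± 0.448 and Il17ra at 4.25 ± 0.206 CPM per kb, and Il17c was last at 0.107 ± 0.119 CPM per kb. In IMQ+H2O, Zc3h12a at 94.3 ± 8.47 and Nfkbiz at 90.6 ± 12.9 CPM per kb led with overlapping libraries. Il17rc was at 51.2 ± 2.34, Traf3ip2 at 13.5 ± 0.521, Il17re at 6.97 ± 1.02, Il17ra at 4.35 ± 0.0756 and Il17c at 1.69 ± 0.577 CPM per kb, none of them overlapping its neighbour in this order. The order was the same in IMQ+XYF, where Zc3h12a at 84.2 ± 19.8 and Nfkbiz at 76.7 ± 19.9 CPM per kb again overlapped. There Il17rc was at 51.9 ± 2.60, Traf3ip2 at 13.5 ± 1.05, Il17re at 6.12 ± 0.349, Il17ra at 4.04 ± 0.0683 and Il17c at 1.13 ± 0.184 CPM per kb.

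Transcripts of the chain for IL-17A and IL-17F were thus more abundant per length than those of the shared chain. Within a library, Il17rc over Il17ra per kilobase was 8.67 ± 0.928 in VAS+H2O, 11.8 ± 0.718 in IMQ+H2O, then 12.9 ± 0.525 in IMQ+XYF (SD, n = 3). Il17ra over Il17re was 0.863 ± 0.113, 0.633 ± 0.0894 and 0.661 ± 0.0447 in the same groups. These ratios depend on which annotated exons are used and were not tested.

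Imiquimod treatment was compared with Vaseline to see how the pathway behaves in psoriasis-like epidermis. The ligand Il17c, the ligand-specific chains Il17rc and Il17re and the RNase gene Zc3h12a were higher in IMQ+H2O than in VAS+H2O. The shared chain Il17ra and the adaptor Traf3ip2 did not pass the test, and their intervals were narrow. Of the 7 genes, 4 passed at an adjusted p of at most 0.05 in edgeR, all higher, where 22.1% of the 18009 genes tested passed, 12.7% higher and 9.41% lower. Il17c, with 10 counts over the controls, could enter the test only by being higher, and with 10 or more counts required in every library it was not tested and 3 of the others passed. Il17c and Zc3h12a were also DEGs, which adds a log2 fold change of 1 or more in either direction, as 7.68% of genes were. The groups did not overlap for 5 of the 7 genes, beside 45% of all genes tested.

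Il17c rose 13.99-fold, from 10 counts over the controls to 132 over IMQ+H2O, with a log2 fold change of 3.81 ± 0.77 (SE) and an adjusted p of 0.0185 by edgeR. Its 95% interval was wide, from 1.98 to 5.63, and the log2 fold change was 5.18 without VAS+H2O replicate 1 and 3.32 without VAS+H2O replicate 3. The adjusted p was 0.0645 without VAS+H2O replicate 2, 0.0531 without IMQ+H2O replicate 1 and 0.0517 without IMQ+H2O replicate 3, within a range of 8.89e-05 to 0.0645 over all alternatives. In bulk tissue, a change in cell number and a change in RNA per cell cannot be told apart, here or in the results that follow.

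Among the receptors, Il17rc rose 1.37-fold from 98.7 ± 13.8 to 137 ± 6.26 CPM (SD, n = 3; log2 fold change 0.46 ± 0.11 SE, edgeR adjusted p = 0.0292). Without VAS+H2O replicate 2 its log2 fold change was 0.36 and the adjusted p 0.0682, and the call was also lost without VAS+H2O replicate 1 (0.0772), IMQ+H2O replicate 1 (0.0737) or IMQ+H2O replicate 3 (0.0764), in a range of 0.00524 to 0.0772. Il17re rose 1.39-fold from 29.1 ± 2.63 to 40.9 ± 6.01 CPM (SD, n = 3; log2 fold change 0.48 ± 0.13 SE, edgeR adjusted p = 0.0442). This call was near the threshold: it was kept in only 1 of 6 fits that left out a library, that without IMQ+H2O replicate 1. It was also lost with a replicate block (edgeR adjusted p = 0.0842), and the adjusted p over the alternatives ran from 0.0146 to 0.119. Il17ra was at 36.8 ± 1.78 and 37.7 ± 0.654 CPM (SD, n = 3; log2 fold change 0.02, 95% interval -0.17 to 0.21, edgeR adjusted p = 0.874). A rise of Il17ra by more than 0.21 on the log2 scale was outside this interval.

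Traf3ip2 had a log2 fold change of -0.04 (95% interval -0.23 to 0.16, edgeR adjusted p = 0.782), with 50.5 ± 2.89 CPM in VAS+H2O and 49.7 ± 1.92 CPM in IMQ+H2O (SD, n = 3).

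Of the regulators, Zc3h12a rose 3.29-fold from 81.8 ± 27.1 to 272 ± 24.4 CPM (SD, n = 3; log2 fold change 1.72 ± 0.25 SE, edgeR adjusted p = 0.00958). It passed in every alternative that was run, including each fit without 1 library. Nfkbiz was at 259 ± 98.8 CPM in VAS+H2O and 455 ± 64.7 CPM in IMQ+H2O (SD, n = 3; log2 fold change 0.80 ± 0.29 SE, edgeR adjusted p = 0.0934). Its groups did not overlap and its 95% interval was 0.11 to 1.49, yet it passed only with DESeq2 (adjusted p 0.0142), in a range of 0.0142 to 0.197. The log2 fold change was 0.51 (adjusted p 0.0790) without VAS+H2O replicate 1, the control with the least Nfkbiz.

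Marker genes of other cells were counted in the same comparison. Of the tested markers of dendritic epidermal T cells 2 of 8 fell by edgeR, as did 6 of 6 of cartilage. Among dermal fibroblast markers 1 of 8 rose and 2 fell, and among keratinocyte markers 3 of 8 rose. Of 11 neutrophil markers only 2 were tested and 1 rose, and of 8 monocyte and macrophage markers 6 were tested and 2 rose. Over all genes 12.7% were higher and 9.41% lower. Mean Cxcr2 was 11.4 CPM in VAS+H2O and 60.1 CPM in IMQ+H2O, while Mmp9, also a neutrophil marker, was at 6.59 and 6.05 CPM. The part of these cells in the results for the 7 genes was not tested.

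The other ligands and receptors of the family were scarce. Il17a had 0 counts in all 9 libraries, which allows up to 0.0990 CPM in the shallowest before TMM normalization, and Il17f had 3 counts in VAS+H2O replicate 1 and 0 elsewhere. Il25 had 0 to 7 counts per library and Il17b 0 to 28. Il17rb, the receptor chain for IL-25 and IL-17B, was at 9.30, 10.3 and 10.1 CPM in VAS+H2O, 6.22, 6.16 and 4.47 CPM in IMQ+H2O, then 6.08, 5.98 and 5.13 CPM in IMQ+XYF. It fell by 0.84 on the log2 scale in IMQ+H2O (edgeR adjusted p = 0.0197), with no overlap between these groups. Il17rb did not pass without VAS+H2O replicate 2, where calls fell to 1446 of 18608 genes. There the median log2 fold change of the 3 tested genes among these ligands and receptors was -0.80. Il17rd, a receptor-like regulator, was at 4.19, 4.85 and 4.47 CPM in VAS+H2O, 0.483, 2.96 and 2.59 CPM in IMQ+H2O, then 2.86, 0.955 and 1.82 CPM in IMQ+XYF. IMQ+H2O replicate 1 held only 14 counts, and the log2 fold change of -1.16 did not pass (edgeR adjusted p = 0.175). Il17d, a ligand gene of the family, had 32 to 64 counts per library and a log2 fold change of -0.52 (edgeR adjusted p = 0.271). Of the 7 genes of this list 3 were tested, with a median log2 fold change of -0.84 beside -0.03 over all genes tested.

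Among 22 partners and kinases of Act1, 6 rose and 2 fell in IMQ+H2O, with a median log2 fold change of 0.10, where 12.7% of all genes tested rose and 9.41% fell, with a median of -0.03. Tbk1, a kinase that phosphorylates Act1, rose from 41.8 to 59.4 CPM (log2 fold change 0.49 ± 0.09 SE, edgeR adjusted p = 0.0144). Traf3, an inhibitor of receptor-Act1 binding, rose from 15.1 to 26.7 CPM (0.81 ± 0.16, edgeR adjusted p = 0.0165), and Traf4, which competes with TRAF6 for Act1, from 11.3 to 19.2 CPM (0.75 ± 0.17, edgeR adjusted p = 0.0271). Btrc, the E3 ligase subunit that degrades Act1, fell from 18.4 to 11.8 CPM (-0.66 ± 0.13, edgeR adjusted p = 0.0172) and Traf5, a partner of Act1 in mRNA stabilization, from 16.8 to 9.08 CPM (-0.90 ± 0.19, edgeR adjusted p = 0.0194). The other genes that rose were Usp25, Tnip1 and Tnfaip3. Without VAS+H2O replicate 2, an alternative chosen after seeing the data, only Traf3 of this list passed, where 1446 of 18608 genes did, and the list median was 0.11.

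Of 7 relatives and partners of Regnase-1, 2 rose and 0 fell, beside 22.1% of all genes that passed in either direction, with a median log2 fold change of 0.01. Zc3h12c, which encodes the related RNase Regnase-3, rose from 14.97 to 32.4 CPM (log2 fold change 1.10 ± 0.25 SE, edgeR adjusted p = 0.0256). Upf1, the helicase that works with Regnase-1, rose from 106 to 140.1 CPM (0.39 ± 0.08, edgeR adjusted p = 0.0186). Neither passed without VAS+H2O replicate 2, where calls fell over all genes and the list median was 0.04.

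Of 14 genes of the IκB family, NF-κB, C/EBP and related factors, which include Stat3 and Pou2f3, 9 rose and 0 fell, beside 12.7% and 9.41% of all genes, with a median log2 fold change of 0.56. Bcl3, a nuclear IκB protein like IκBζ, rose from 4.98 to 67.8 CPM (log2 fold change 3.76 ± 0.34 SE, edgeR adjusted p = 0.00379). Cebpb, a transcription factor activated by IL-17, rose from 65.8 to 121.8 CPM (0.88 ± 0.08, edgeR adjusted p = 0.00372). Stat3 rose from 207 to 356 CPM (0.76 ± 0.10, edgeR adjusted p = 0.00806), Nfkb1 from 104 to 157 CPM (0.59 ± 0.09, adjusted p = 0.00947) and Nfkb2 from 35.9 to 58.6 CPM (0.69 ± 0.11, adjusted p = 0.0107). The other 4 were Nfkbib, Nfkbid, Rela and Relb. Without VAS+H2O replicate 2, 6 of the 14 passed, these 5 and Cebpd.

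Genes listed as targets of IL-17 in keratinocytes were mostly higher, and the part of IL-17 in this was not tested. Of 28 listed genes 25 were in the table by symbol, and Il36a, Il36b and Il36g were not found under these symbols. Of the 25 genes, 23 were tested, 18 rose and 0 fell, beside 12.7% higher and 9.41% lower over all genes. Genes with almost no control counts, such as Il24 and Defb4 with 0, could enter the test only by being higher. With 10 or more counts required in every library, a filter chosen for the lists after seeing the data, 12 of 15 tested genes rose and 0 fell, with a median log2 fold change of 3.78, where 4011 of 15859 genes passed. Over the 23 genes the median log2 fold change was 4.46, or 4.31 with the 3 genes absent from every control library set against a floor of 3 counts per library. Krt16, a keratin of activated epidermis, rose from 67.5 to 2702 CPM (log2 fold change 5.31 ± 0.36 SE, edgeR adjusted p = 0.00194). Slpi, a protease inhibitor, rose from 3.45 to 88.8 CPM (4.67 ± 0.21, adjusted p = 0.00148), and Lcn2, an antimicrobial protein that binds siderophores, from 1.79 to 74.5 CPM (5.35 ± 0.47, adjusted p = 0.00355). Lcn2 ran from 45.0 to 119 CPM in IMQ+H2O and S100a8 from 105 to 982 CPM, both highest in replicate 3, the library with the largest neutrophil marker sum, and the part of neutrophils was not tested. The chemokine genes Ccl20 and Cxcl1 rose from 5.33 to 117.1 CPM (4.45 ± 0.32, adjusted p = 0.00214) and from 5.99 to 82.1 CPM (3.77 ± 0.33, adjusted p = 0.00355). Without VAS+H2O replicate 2, 14 of 24 tested genes rose and 0 fell, where 1446 of 18608 genes passed.

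XYF with imiquimod was compared with imiquimod and water to see whether the decoction altered the pathway. None of the 7 genes passed the edgeR test, none had an unadjusted p under 0.05, as 966 of the 17793 genes tested had, and DESeq2 called 0 of 7. Over all genes tested 5 passed by edgeR, which is 0.0281%, and the same 0.0281% were DEGs, while DESeq2 called 165. Il17c had the widest interval, and the receptor and adaptor genes had narrow ones. The groups did not overlap for 1 of the 7 genes, Il17ra, beside 10.7% of all genes tested.

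Il17c was at 1.217 ± 0.415 CPM in IMQ+H2O and 0.815 ± 0.133 CPM in IMQ+XYF (SD, n = 3), a log2 fold change of -0.57 with a 95% interval of -1.36 to 0.23. At 24 to 58 counts per library, a fall of Il17c by 1 on the log2 scale could not be told from no change. Il17ra was lower in all 3 IMQ+XYF libraries, at 35.0 ± 0.591 against 37.7 ± 0.654 CPM (SD, n = 3), with a log2 fold change of -0.10 (95% interval -0.27 to 0.06). Il17rc had a log2 fold change of 0.03 (-0.14 to 0.19) and Il17re of -0.18 (-0.47 to 0.11). That of Traf3ip2 was 0.01 (-0.19 to 0.21).

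Zc3h12a was at 243 ± 57.0 CPM with XYF (SD, n = 3), a log2 fold change of -0.16 with a 95% interval of -0.56 to 0.25. Nfkbiz was at 385 ± 99.8 CPM with XYF (SD, n = 3), a log2 fold change of -0.23 with a 95% interval of -0.71 to 0.24. IMQ+XYF replicate 3 was lowest for both, and without it the log2 fold changes were -0.01 for Zc3h12a and -0.05 for Nfkbiz, while without IMQ+XYF replicate 2 they were -0.34 and -0.41. The edgeR adjusted p was 0.99986 for each of the 7 genes. Cartilage markers were higher with XYF for 2 of 6 tested, where 0.0281% of all genes passed. The count was 0 of 8 for keratinocytes, dendritic epidermal T cells and dermal fibroblasts each, and 0 of 4 for skeletal muscle. Median log2 fold changes were 2.05 for cartilage, 1.45 for dermal fibroblasts and 2.44 for skeletal muscle. The part of these tissues was not tested.

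No gene of the other pathway lists passed in this comparison by edgeR. Unadjusted p-values were under 0.05 for 2 of 22 Act1 partners, 1 of 7 Regnase relatives, 2 of 14 IκB, NF-κB, C/EBP and related genes, 0 of 24 keratinocyte targets and 0 of 3 other ligands and receptors, beside the 966 of 17793 over all genes. DESeq2 called 1 gene of these lists, Traf3, which was lower with XYF. The median log2 fold change was -0.20 for the keratinocyte targets, -0.03 for the Act1 partners, -0.05 for the Regnase relatives, -0.02 for the IκB, NF-κB, C/EBP and related genes and 0.04 for the other ligands and receptors. Il17rb, Il17rd and Il17d had log2 fold changes of 0.04, -0.09 and 0.09.

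**Figure D2:**
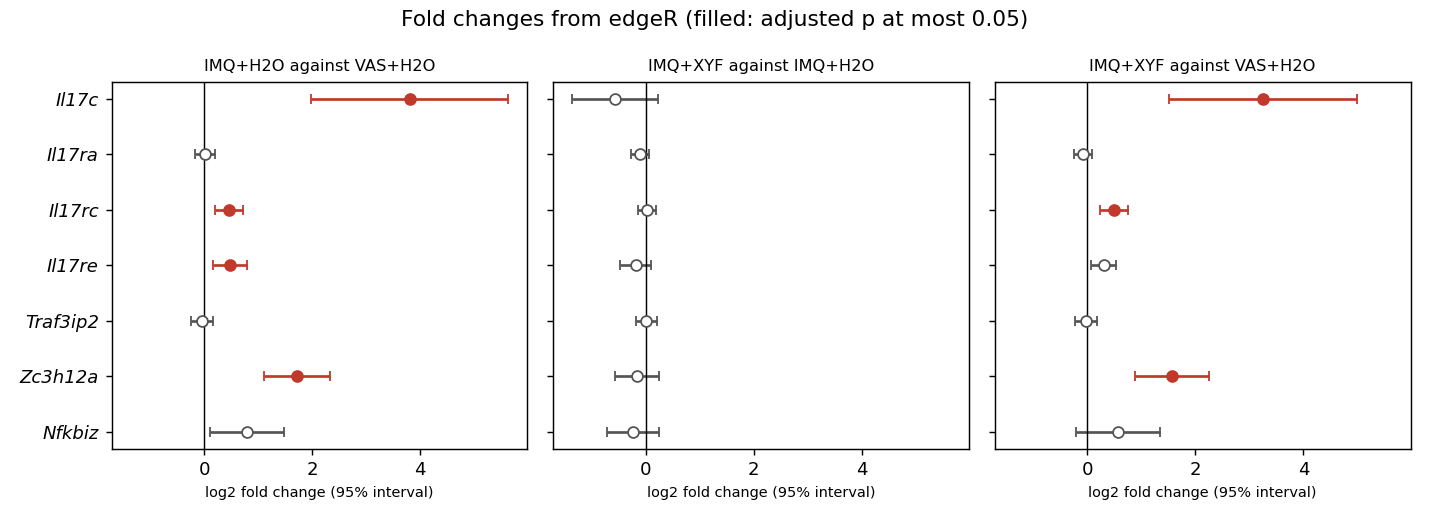
Log2 fold change of each gene by edgeR (horizontal axis) with its 95% interval in the 3 comparisons, with filled points where the adjusted p was at most 0.05 (n = 3 libraries per group). Filled points are Il17c, Il17rc, Il17re and Zc3h12a for IMQ+H2O against VAS+H2O, none for IMQ+XYF against IMQ+H2O, and Il17c, Il17rc and Zc3h12a for IMQ+XYF against VAS+H2O.

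The IMQ+XYF group was also compared with the Vaseline controls, which are the same 3 libraries as in the comparison with IMQ+H2O. Il17c, Il17rc and Zc3h12a were higher with imiquimod and XYF than in VAS+H2O, Il17re missed the threshold, and Il17ra, Traf3ip2 and Nfkbiz did not pass. Of the 7 genes 3 passed in edgeR, all higher, where 28.7% of the 17954 genes tested passed, 16.7% higher and 12% lower. Again Il17c could enter the test only by being higher. Il17c and Zc3h12a were DEGs, as 7.64% of genes were. The groups did not overlap for 5 of 7 genes, beside 47.5% of all genes tested.

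Il17c rose 9.50-fold (log2 fold change 3.25 ± 0.73 SE, 95% interval 1.51 to 4.99, edgeR adjusted p = 0.0179), with a log2 fold change of 4.64 without VAS+H2O replicate 1 and 2.75 without VAS+H2O replicate 3. The adjusted p was 0.0586 without VAS+H2O replicate 2, 0.0544 without IMQ+XYF replicate 1 and 0.0661 without IMQ+XYF replicate 3, in a range of 0.00095 to 0.0661 over the alternatives, and 0.0570 with a replicate block. Il17rc rose 1.40-fold to 139 ± 6.94 CPM (SD, n = 3; log2 fold change 0.49 ± 0.11 SE, edgeR adjusted p = 0.0176). It was 0.39 without VAS+H2O replicate 2 (adjusted p 0.0251), and the call was lost without IMQ+XYF replicate 1 (0.0512) or replicate 2 (0.0538) and with a replicate block (0.0514), in a range of 0.00106 to 0.0538. Il17re was at 35.9 ± 2.05 CPM (SD, n = 3; log2 fold change 0.30 ± 0.09 SE, edgeR adjusted p = 0.0532), with all 3 libraries above the controls. It passed without VAS+H2O replicate 1 (0.0420) and with at least 10 counts required in every library (0.0439), in a range of 0.0420 to 0.154.

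Il17ra had a log2 fold change of -0.08 (95% interval -0.25 to 0.10, edgeR adjusted p = 0.468), and Traf3ip2 of -0.02 (95% interval -0.22 to 0.19, edgeR adjusted p = 0.897). Zc3h12a rose 2.97-fold (log2 fold change 1.57 ± 0.29 SE, edgeR adjusted p = 0.00871) and passed in every alternative that was run. Nfkbiz had a log2 fold change of 0.57 ± 0.32 (SE), with overlapping groups, and did not pass (95% interval -0.20 to 1.34, edgeR adjusted p = 0.231). It was 0.29 without VAS+H2O replicate 1 and 0.83 without VAS+H2O replicate 3. Markers of dendritic epidermal T cells were lower for 4 of 8 tested and those of cartilage for 0 of 6. Higher were 3 of 8 keratinocyte markers, 1 of 8 dermal fibroblast markers and 1 of 6 Langerhans cell markers. Of 11 neutrophil markers only 3 were tested, and 2 were higher. Median log2 fold changes were 0.32 for keratinocyte and 2.32 for neutrophil markers. For dermal fibroblast and Langerhans cell markers they were -0.82 and -0.18, opposite in sign to the gene called in each list. Over all genes, 16.7% were higher and 12% lower. The part of these cells was not tested.

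The pathway lists were counted against the same controls, where 28.7% of all genes passed, 16.7% higher and 12% lower. The counts of the lists were not tested against these shares. Il17rb fell by 0.79 on the log2 scale (edgeR adjusted p = 0.00648) and Il17rd by 1.24 (adjusted p = 0.0463), while Il17d had -0.43 (adjusted p = 0.314), and the median of these was -0.79 beside -0.04 over all genes. Of 22 Act1 partners 3 rose and 2 fell, with a median of 0.12: the deubiquitinase gene Usp25 (0.37, adjusted p = 0.00517), the RNA-binding protein gene Elavl1 (0.38, adjusted p = 0.00890) and Tnip1 (0.42, adjusted p = 0.0175) were higher, and Btrc (-0.52, adjusted p = 0.0107) and Traf5 (-0.59, adjusted p = 0.0438) were lower. Traf5 and Il17rd no longer passed without VAS+H2O replicate 2, and Traf3 did. Zc3h12c (1.17, adjusted p = 0.0258) and Upf1 (0.28, adjusted p = 0.0190) were the 2 of 7 Regnase relatives that rose, with a list median of 0.03, and neither passed without VAS+H2O replicate 2. Of 14 IκB, NF-κB, C/EBP and related genes 9 rose and 0 fell, with a median of 0.55, and Bcl3 led with 65.7 CPM (3.73 ± 0.32 SE, adjusted p = 0.000951). Cebpb had 0.72 (adjusted p = 0.00110), Stat3 0.75 (adjusted p = 0.00137), Nfkb2 0.73 (adjusted p = 0.00224) and Nfkb1 0.61 (adjusted p = 0.00238). Without VAS+H2O replicate 2, 9 genes of this list rose and 1, Pou2f3, fell, with Rela lost and Cebpd gained.

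Of 21 keratinocyte targets tested 18 rose and 0 fell, beside 16.7% higher and 12% lower over all genes. Their median log2 fold change was 4.12, or 3.96 with the 2 genes absent from the controls set against the floor. Here too, genes with almost no control counts could enter the test only by being higher. With 10 or more counts required in every library, 13 of 15 rose and 0 fell, with a median of 3.66, where 5194 of 15986 genes passed. The alarmin genes S100a8 and S100a9 rose from 1.46 to 314 CPM (7.71 ± 0.35 SE, edgeR adjusted p = 0.000145) and from 3.66 to 358 CPM (6.59 ± 0.31, adjusted p = 0.000145). Neutrophils make both transcripts too, their markers summed to 66.2 to 100.2 CPM here against 16.9 to 19.8 CPM in the controls, mostly through Cxcr2, and their part was not tested. Krt16 reached 2324 CPM (5.11, adjusted p = 0.00011), Slpi 83.4 CPM (4.59, adjusted p = 0.000145) and Lcn2 77.6 CPM (5.42, adjusted p = 0.000216). Without VAS+H2O replicate 2, 18 of 25 tested genes rose, where 3849 of 18386 genes passed.

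Over the 9 libraries, the genes most like each member were found by Pearson correlation of log2 CPM among 12979 candidates, as a description in which all points share the groups and the library totals. Zc3h12a was most like Avpi1 (r = 0.989), Zfand5 (0.983) and Slc1a1 (0.980), and Nfkbiz was most like Fosl1 (0.969), Sde2 (0.964) and Nfkbia (0.961). Il17rc was most like Pdzk1ip1 (0.993), Cops7a (0.991) and Oas1a (0.986), and Il17re was most like Ubash3b (0.977), Tada2b (0.966) and Ptpn11 (0.953). For the genes that varied little, the closest were AC125071.1 (0.927), Bcl2l13 (0.912) and Cdk12 (0.910) for Il17ra, and Smim20 (0.958), Piga (0.890) and Slc35a4 (0.889) for Traf3ip2. Among the members themselves, Zc3h12a and Nfkbiz had r = 0.887 and Zc3h12a and Il17rc r = 0.851, while Il17rc and Il17ra had r = -0.01 (n = 9 libraries each).

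RefSeq promoters on GRCm38.p6 were given for 4 of the 7 genes, Il17c, Il17rc, Il17re and Zc3h12a. The 250 bases before the start are shown for Il17c and Zc3h12a, the genes with the largest fold changes, and no capitals appear because no searched motif was found in them. Il17c (chr8:122421770-122422019, forward strand) had 56.0% GC and 5 CpG pairs, and Zc3h12a (chr4:125127882-125128131, reverse strand) had 66.4% GC and 21 CpG pairs. Over 32851 promoters the medians were 52.4% GC (quartiles 45.2% and 61.2%) and 6 CpG pairs (quartiles 2 and 16), so the Zc3h12a promoter was above the upper quartile in both.

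Il17c upstream: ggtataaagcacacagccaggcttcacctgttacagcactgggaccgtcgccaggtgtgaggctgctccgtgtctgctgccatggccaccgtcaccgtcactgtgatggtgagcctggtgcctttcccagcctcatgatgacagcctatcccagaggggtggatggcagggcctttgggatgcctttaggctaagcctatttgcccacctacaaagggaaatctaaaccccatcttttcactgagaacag
Zc3h12a upstream: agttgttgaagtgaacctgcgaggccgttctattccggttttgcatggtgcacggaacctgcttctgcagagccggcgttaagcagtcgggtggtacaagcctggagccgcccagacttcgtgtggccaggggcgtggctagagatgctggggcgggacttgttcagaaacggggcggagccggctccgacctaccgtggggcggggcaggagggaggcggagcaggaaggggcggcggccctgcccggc

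Motifs were searched on both strands of the 300 bases around each start, and a match is a description of the letters only. The κB letters, GGG and TTCC with any 3 bases between them, were found in 5.56% of all promoters, the C/EBP letters TTGCNNAA in 10.8%, the GAS letters TTCNNNGAA of STAT factors in 8.30% and the AP-1 letters TGANTCA in 7.81%. Of the 4 promoters only that of Il17rc held a match, to the κB letters on the reverse strand at chr6:113471219-113471228. It is printed in capitals within the 38 bases at chr6:113471205-113471242, forward strand, since Il17rc is a receptor gene whose level rose.

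Il17rc upstream: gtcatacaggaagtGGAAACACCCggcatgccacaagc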

How the data were processed

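The authors deposited a table of whole-number counts per gene and library for the epidermis, treated here as raw counts. The submitters' processing notes name FastQC, STAR 2.5, Cuffnorm and DESeq 1.22.1, and the build is GRCm38. The counting tool and its strand setting are not given in the sources used here. The labels call the libraries strand-specific, while the TruSeq kit named in the methods does not mark strand.

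Calculations used R 4.3.3, edgeR 4.0.16 and DESeq2 1.42.0. Each pair of groups was fitted on its 6 libraries with TMM, filterByExpr and edgeR's quasi-likelihood test, with Benjamini-Hochberg adjustment over all genes tested. All 7 genes passed the filter in each comparison. Alternatives were DESeq2, RLE size factors, no filter, a filter of 10 or more counts per library, a joint fit of the 9 libraries, a replicate block, the DEG rule and each library left out. Correlations used log2 CPM with a prior count of 2. Positions are from GENCODE release M21.

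Named genes are the 7 members, the other IL-17 ligands and receptors, up to 5 genes per comparison with the smallest adjusted p (at most 0.05, at least 1 CPM in a group) from each other list, and the 3 genes most correlated with each member of at least 1 CPM, leaving out symbols that start with Gm or end in Rik. Other genes of the lists that passed in a fit are named without values, chosen after seeing the data. The marker list of IL-17-producing T cells is not reported here as a whole. Members and lists were chosen with earlier results of these data known.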

Additional observations from a re-analysis of the deposited data

How the results depend on the processing

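In IMQ+H2O against VAS+H2O, the DEG rule left 2 of 7 genes and 1383 of all genes. Leaving out 1 library gave 1 to 3 of the 7 genes and 1446 to 3077 of all genes (without VAS+H2O replicate 1: 2 and 1782; without VAS+H2O replicate 2: 1 and 1446; without IMQ+H2O replicate 1: 2 and 2148; without IMQ+H2O replicate 3: 1 and 2131). In IMQ+XYF against IMQ+H2O, DESeq2 called 165 genes and all 9 libraries in 1 fit 1, and leaving out 1 library gave 0 to 5, with 5 only without IMQ+H2O replicate 3. In IMQ+XYF against VAS+H2O, the DEG rule left 1371 genes, and leaving out 1 library gave 1 to 4 of the 7 genes (1 without IMQ+XYF replicate 1) and 3221 to 4544 of all genes (3221 without IMQ+XYF replicate 3). Genes near 0 changed sign. Leaving out 1 library moved the log2 fold change of Il17ra from -0.00303 to 0.0943 and of Traf3ip2 from -0.0870 to 0.0302 in IMQ+H2O against VAS+H2O. In IMQ+XYF against IMQ+H2O it moved Il17rc from -0.0115 to 0.0611 and Traf3ip2 from -0.0465 to 0.0568. In IMQ+XYF against VAS+H2O, Traf3ip2 ran from -0.0616 to 0.0554, and was 0.0013 with no low-count filter and 0.0024 with at least 10 counts in every library, under which Il17c was not tested against VAS+H2O. With the replicate block, 3, 0 and 1 of the 7 genes passed in the 3 comparisons, and 3002, 0 and 3753 of all genes. Samples with the same number had correlations of -0.133 to 0.105 between their deviations from the group means, so the numbers are not known to pair animals. In all of these the cause was not tested. With no filter, Il17re was at an adjusted p of 0.0577 in IMQ+H2O against VAS+H2O.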
